A study of Arabidopsis thaliana with 8 samples.

Results

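In the Arabidopsis thaliana petc mutant, 46 transcripts outside the brightest on the array stood above wild type in every sample, with mean intensities 1.24 to 2.73 times those of WT. They were chosen for exactly that difference. A probe was taken if the platform annotation paired it with 1 gene, if it was above 0 in all 8 samples, and if it was not among the 60 brightest such probes by WT mean. Its lowest petc value had to exceed 1.1 times its highest WT value. Of 3439 probes with deposited values, 692 had 1 gene, 587 of these were above 0 in all samples, and 527 remained outside the brightest 60. The margin was met by 54 of the 527, or 10.2%, and over all 2911 probes above 0 everywhere by 12.2%. Leaving out 16 loci that the rule names, 8 of which had met the margin, left the 46, each a different gene. The difference between petc and WT is therefore the criterion of choice for these genes and is given below as a description. Calls of a fit on these values are counted beside those over other probes, and support nothing about the members.

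The study compared total RNA of the petc mutant with that of WT plants, both of the ecotype Landsberg, with 4 samples per group that carry the replicate numbers 1 to 4. Per the labels, petc plants lack the Rieske subunit of cytochrome b6f, and no further allele or treatment is named for either group. The labels do not say whether replicates came from separate plants, extracts or hybridisations, nor which tissue was used, and the marker lists for mesophyll, root, guard cells, phloem, epidermis, senescence and defence had 0 measured genes on single-gene probes. PETC itself is not analysed here, and so no check of the labels was made on the mutated gene. In bulk RNA of this kind, a change in the share of a cell type and a change in RNA per cell cannot be told apart.

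The cytochrome b6f complex takes electrons from plastoquinol and passes them through the Rieske iron-sulfur protein towards plastocyanin and photosystem I. Without it linear electron transport stops and the plastoquinone pool stays reduced in the light. Most chloroplast proteins are encoded in the nucleus, and plants are known to adjust nuclear transcripts to the redox state and function of the chloroplast, which is called retrograde signalling.

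All values below are deposited intensities in an arbitrary linear unit unless a log2 fold change is named. A log2 fold change is petc over WT on quantile normalised values, with the SE of a limma fit across all 2947 tested probes. An error after a mean intensity is the SD of 4 samples, and one after a log2 fold change is the SE. The mean deposited intensity over all probes was 0.956 to 1.0 per sample, and 430 to 461 probes per sample were listed at 0. The samples of a group fell into pairs by replicate number, since Spearman's rho across probes was 0.975 to 0.988 between samples 1 and 2 or 3 and 4 of a group, but 0.90 to 0.921 across those pairs. Samples of petc and WT with the same pair of numbers had 0.895 to 0.921. Each SE treats the 4 samples of a group as independent and takes no account of these pairs. A fit with the samples of a pair as correlated readings put their correlation at 0.674. The log2 fold change in replicates 1 and 2 and in replicates 3 and 4 is plotted for every member and written out for those in which the pairs differ most.

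In WT the 46 transcripts were about as bright as the probes they were chosen from, and in petc they were brighter, as the rule requires. In petc their means spanned 0.112 to 1.85 with a median of 0.597, where the 527 eligible probes had 0.365. In WT their means spanned 0.0474 to 1.12 with a median of 0.364, against 0.359 over the eligible probes, and 22 of the 46 lay below the median of those probes. Summed over the 46, the intensity was 32.8, 32.9, 33.7 and 33.6 in petc replicates 1 to 4, against 20.6, 20.9, 19.6 and 19.2 in WT replicates 1 to 4. The petc over WT ratio of means was at least 2 for 11 transcripts, between 1.5 and 2 for 18 and under 1.5 for 17. The ordered plot of fold changes uses the normalised scale instead, where 9 of the 46 had a log2 fold change of at least 1. On the normalised scale the median log2 fold change of the 46 was 0.63, beside -0.02 over all tested probes and -0.04 over the single-gene probes. With the values as deposited these medians were 0.65, 0.05 and 0.02. The limma fit called 38 of the 46 higher at an adjusted p under 0.05, where 12.7% of all tested probes and 11.1% of single-gene probes were called higher. With the near-duplicate samples of a pair treated as correlated readings it called 12 of the 46, where 4.37% of single-gene probes were called higher, while a fit with a replicate block called 44, where 21.2% were. Since the members were chosen on the same contrast, nothing is read from any of these counts.

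**Figure D1:**
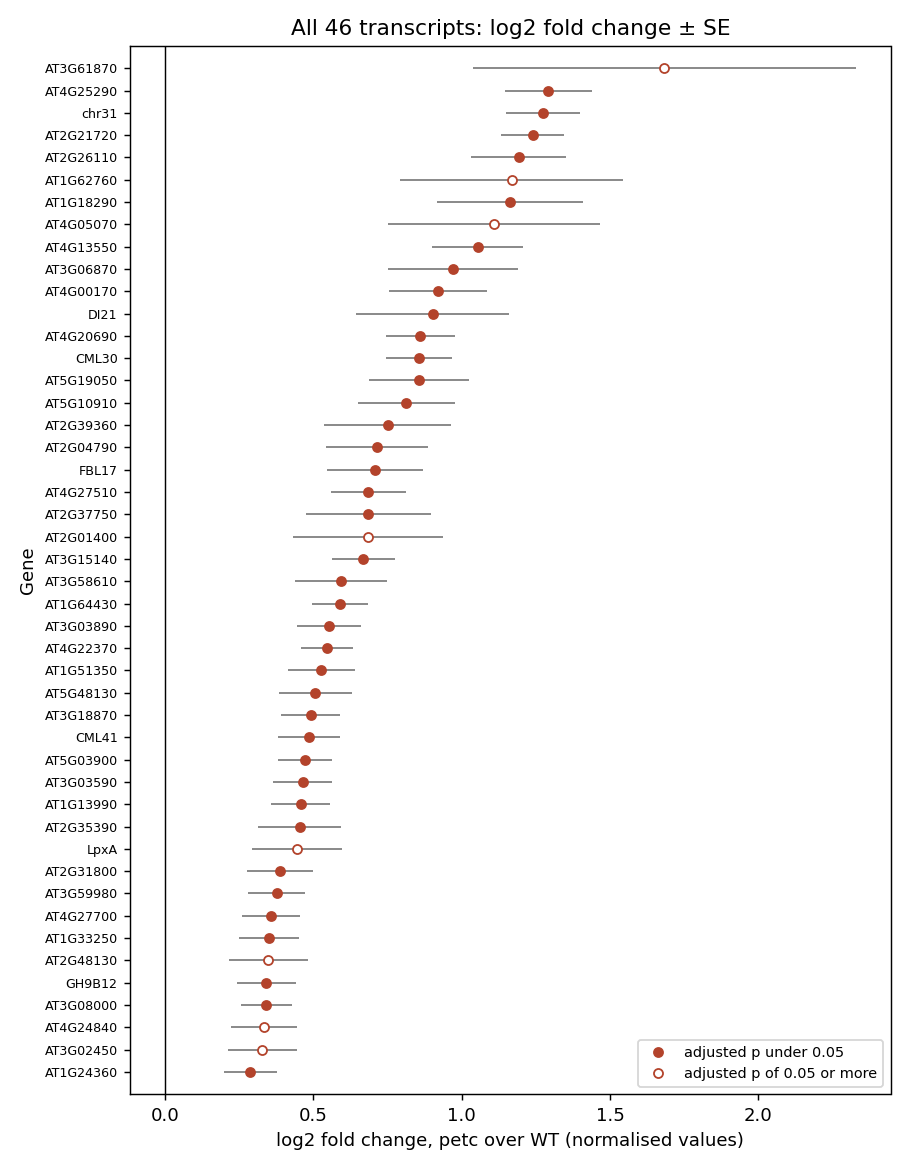
Log2 fold change of petc over WT (x axis, normalised values) for each of the 46 transcripts (y axis), with bars of 1 SE and n = 4 samples per group. The SE treats those samples as independent. Filled points are the 38 with a limma adjusted p under 0.05 (12 with the samples of a pair as correlated readings) and open points the other 8, a description of values that chose the members. Of single-gene probes 11.1% were called higher, and 4.37% with correlated readings. The values span 0.29 to 1.68, and the widest bar belongs to AT3G61870.

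Of the 46 genes, 7 carry a symbol in the reference gene table and 39 only a locus name. That table holds no description of what a gene does, so the roles given here are those of the 7 genes with a symbol, as general knowledge, and the other 39 are described by their values alone, ordered by the ratio of means.

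The 7 genes with a symbol had ratios of 1.30 to 2.45 and log2 fold changes of 0.34 to 1.27, with a median of 0.71. The gene chr31, listed with the synonym chromatin remodeling 31, belongs to the SNF2-type remodelling proteins that act in RNA-directed DNA methylation. Its intensity was 0.978, 1.15, 1.06 and 1.13 in petc replicates 1 to 4, against 0.470, 0.510, 0.422 and 0.363 in WT replicates 1 to 4. Every petc value was at least 1.9 times the highest WT value, and the log2 fold change was 1.27 ± 0.13 (SE, n = 4 per group), with 1.11 in replicates 1 and 2 and 1.44 in replicates 3 and 4. The F-box gene FBL17 encodes the part of a ubiquitin ligase that targets inhibitors of cyclin-dependent kinases, and so promotes the cell cycle. Its intensity was 0.337, 0.299, 0.271 and 0.315 in petc replicates 1 to 4, against 0.138, 0.178, 0.217 and 0.188 in WT replicates 1 to 4. The log2 fold change of FBL17 was 1.03 in replicates 1 and 2 and 0.39 in replicates 3 and 4.

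The calcium sensors CML30 and CML41 belong to the calmodulin-like family, whose members bind calcium and pass its changes on to other proteins. CML30 had 1.47, 1.42, 1.41 and 1.58 in petc replicates 1 to 4, against 0.889, 0.874, 0.700 and 0.725 in WT replicates 1 to 4. The petc samples differed little from each other, while the WT samples 3 and 4 were lower than 1 and 2, so that the log2 fold change of 0.86 ± 0.11 split into 0.67 and 1.04 in the pairs. CML41, known to locate to plasmodesmata, averaged 0.649 ± 0.0312 in petc and 0.462 ± 0.0327 in WT, and its log2 fold change was 0.53 in replicates 1 and 2 and 0.44 in replicates 3 and 4.

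DI21, listed as drought-induced 21, had 0.196, 0.217, 0.212 and 0.178 in petc replicates 1 to 4, against 0.104, 0.136, 0.0512 and 0.126 in WT replicates 1 to 4. WT replicate 3 was well below the other WT samples, and the log2 fold change of 0.90 ± 0.26 was 0.78 and 1.03 in the pairs. Without WT replicate 3 it fell to 0.64, which is 1.56-fold in place of 1.87-fold. LpxA, an acyltransferase of the lipid A pathway known from bacteria, averaged 0.196 ± 0.0292 in petc and 0.131 ± 0.0135 in WT, and its log2 fold change was 0.66 in replicates 1 and 2 and 0.23 in replicates 3 and 4. GH9B12, listed as glycosyl hydrolase 9B12, of the family of endoglucanases that act on cell wall glucans, averaged 0.434 ± 0.0266 in petc and 0.334 ± 0.0213 in WT. After quantile normalisation LpxA and GH9B12 lost the margin of 1.1 between the lowest petc and the highest WT value, and the other 5 kept it.

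GH9B12 had a further reading that played no part in the choice, singled out here after its values were seen. Another probe lists it together with 3 other genes of its glycosyl hydrolase family, so its signal can come from any of the 4. That probe gave 0.285, 0.266, 0.259 and 0.270 in petc replicates 1 to 4, against 0.557, 0.527, 0.358 and 0.360 in WT replicates 1 to 4. Every petc value was below every WT value, the opposite direction to the probe paired with GH9B12 alone. The log2 fold change was -0.74 ± 0.17 (SE, n = 4 per group, limma adjusted p = 0.0148), with -0.96 in replicates 1 and 2 and -0.52 in replicates 3 and 4. The adjusted p ranged from 0.00476 with the replicate number as a block to 0.0481 over all alternatives run. In the main fit 450 of 2947 tested probes were called lower in petc, so such a call was not rare. The share of probes with every petc value below every WT value was not counted here. Probe sequences were not used here, so which of the 4 genes each probe measures was not tested. One other member, AT3G03890, is listed on a probe with several genes, and that probe was at 0 in all 8 samples.

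**Figure D2:**
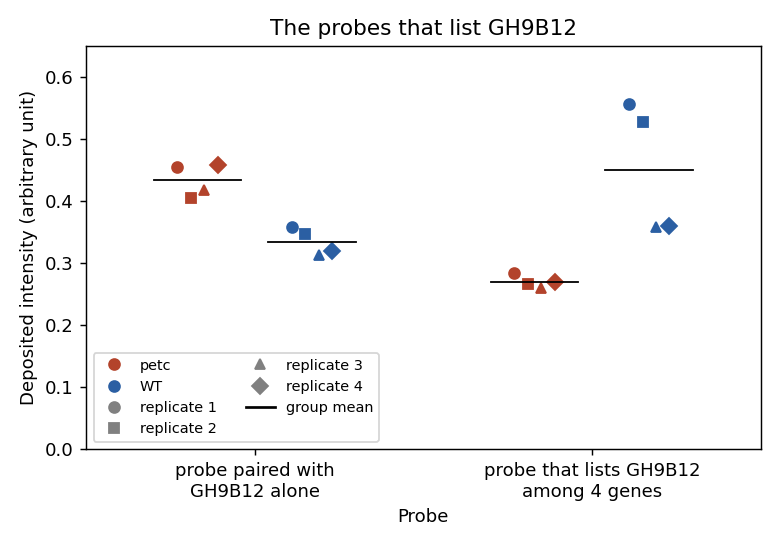
Deposited intensity (y axis, arbitrary unit) on the 2 probes that list GH9B12 (x axis), petc in red to the left of WT in blue, with 4 samples per group and a line at each mean. On the probe paired with GH9B12 alone the petc samples lie above WT, and on the probe that lists 4 genes they lie below it.

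Among the 39 genes known by locus, 10 had a ratio of at least 2, with log2 fold changes of 0.92 to 1.68 and a median of 1.17. AT3G61870 had the largest ratio of means, 2.73, at a low intensity of 0.181, 0.185, 0.140 and 0.152 in petc replicates 1 to 4, against 0.110, 0.0642, 0.00775 and 0.0586 in WT replicates 1 to 4. The next lowest WT sample was 7.56 times as bright as WT replicate 3. The log2 fold change of 1.68 ± 0.65 fell to 0.96 without WT replicate 3, which is 1.95-fold in place of 3.21-fold. In replicates 1 and 2 alone it was 1.11, and in replicates 3 and 4 alone 2.26. AT2G21720 had the widest gap of the 46, with 1.57, 1.78, 1.97 and 2.07 in petc replicates 1 to 4, against 0.665, 0.718, 0.795 and 0.770 in WT replicates 1 to 4. Its lowest petc sample was 1.98 times its highest WT sample, and the log2 fold change of 1.24 ± 0.11 was 1.19 and 1.29 in the pairs.

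AT4G25290 had 0.641, 0.683, 0.751 and 0.665 in petc replicates 1 to 4, against 0.300, 0.339, 0.254 and 0.214 in WT replicates 1 to 4. The WT samples 3 and 4 were the lowest of the 8, and the log2 fold change was 1.52 in that pair and 1.07 in replicates 1 and 2. AT2G26110 had 1.16, 1.32, 1.90 and 1.96 in petc replicates 1 to 4, against 0.640, 0.615, 0.651 and 0.671 in WT replicates 1 to 4. The petc replicates 3 and 4 stood above petc replicates 1 and 2, whereas the WT samples were nearly equal, and the log2 fold change was 0.94 in replicates 1 and 2 and 1.44 in replicates 3 and 4. AT1G62760 had 0.138, 0.102, 0.103 and 0.106 in petc replicates 1 to 4, against 0.0699, 0.0665, 0.0215 and 0.0318 in WT replicates 1 to 4. The petc replicates did not separate by pair, while WT replicates 3 and 4 had less than WT replicates 1 and 2, and the log2 fold change was 0.73 in the first pair and 1.60 in the other.

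AT1G18290 had 1.30, 1.28, 2.03 and 1.84 in petc replicates 1 to 4, against 0.497, 0.533, 0.922 and 0.840 in WT replicates 1 to 4. Both genotypes were brighter in replicates 3 and 4, so petc replicates 1 and 2 came nearest to WT replicates 3 and 4. AT3G06870 had 0.279, 0.253, 0.422 and 0.425 in petc replicates 1 to 4, against 0.133, 0.144, 0.224 and 0.169 in WT replicates 1 to 4. Replicates 3 and 4 were the brighter pair in both genotypes. AT4G13550 had 0.915, 0.911, 0.835 and 0.846 in petc replicates 1 to 4, against 0.488, 0.502, 0.400 and 0.328 in WT replicates 1 to 4. The petc samples lay close together and the WT samples 3 and 4 were lower than 1 and 2, with a log2 fold change of 1.05 ± 0.15 that was 0.92 and 1.19 in the pairs.

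AT4G00170 had 0.269, 0.227, 0.353 and 0.314 in petc replicates 1 to 4, against 0.176, 0.115, 0.153 and 0.128 in WT replicates 1 to 4. Its lowest petc sample was replicate 2 and its highest WT sample replicate 1, and the log2 fold change was 0.77 and 1.07 in the pairs. AT4G05070 had 0.897, 0.626, 0.743 and 0.619 in petc replicates 1 to 4, against 0.544, 0.412, 0.330 and 0.154 in WT replicates 1 to 4. Its WT samples spread widely, WT replicate 4 lowest, and the log2 fold change of 1.11 ± 0.36 was 0.70 and 1.52 in the pairs. Without WT replicate 4 it fell to 0.75. Of these 10 genes AT4G05070 lost the margin after quantile normalisation, and the other 9 kept it.

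**Figure D3:**
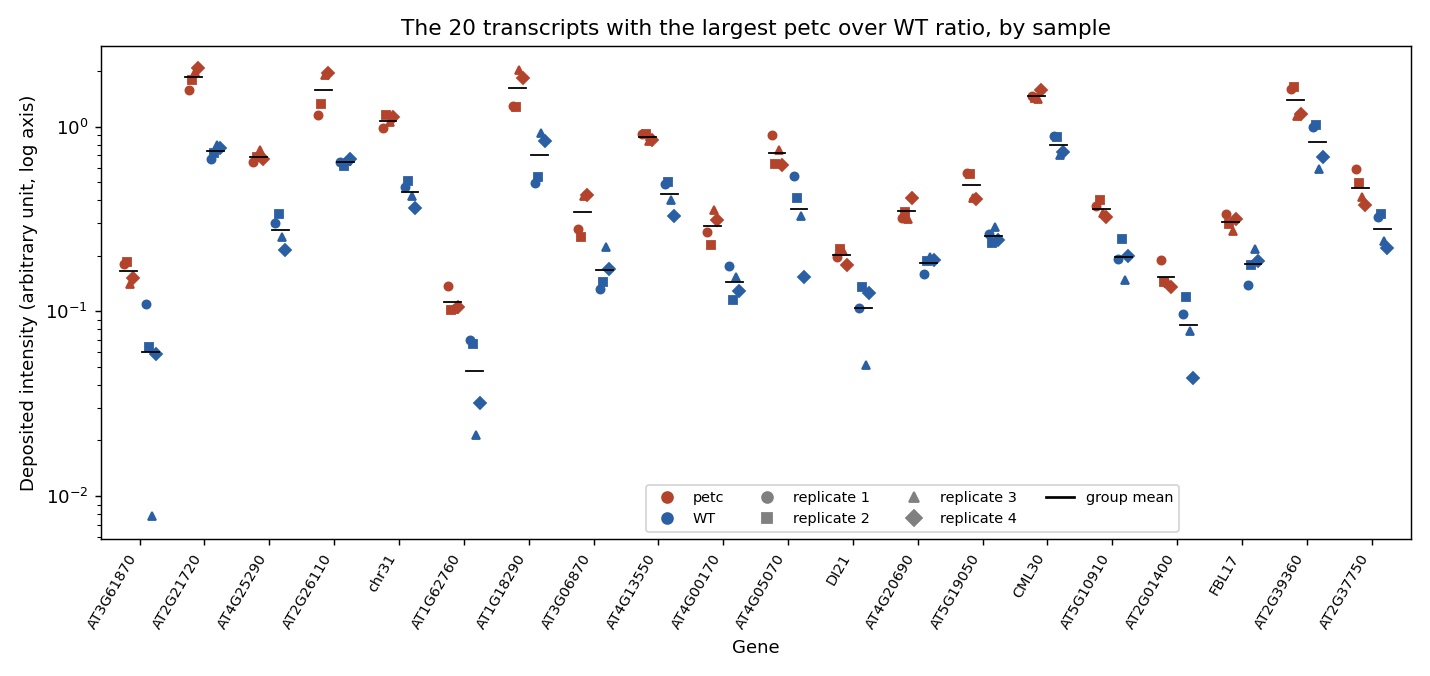
Deposited intensity (y axis, arbitrary unit, log axis) in each sample for the 20 transcripts with the largest ratio of petc to WT means (x axis), petc in red to the left of WT in blue, with marker shapes for replicates 1 to 4 and a line at each group mean. No petc sample reaches down to a WT sample of the same gene, which is the rule of choice, and WT replicate 3 of AT3G61870 lies far below the other WT samples.

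A ratio between 1.5 and 2 was found for 14 of the genes known by locus, with log2 fold changes of 0.51 to 0.86 and a median of 0.69. AT4G20690 had 0.320, 0.343, 0.317 and 0.411 in petc replicates 1 to 4, against 0.159, 0.188, 0.197 and 0.190 in WT replicates 1 to 4. Its lowest petc value was 1.61 times its highest WT value, and the log2 fold change was 0.86 ± 0.12. AT5G19050 had 0.562, 0.551, 0.412 and 0.406 in petc replicates 1 to 4, against 0.263, 0.234, 0.284 and 0.244 in WT replicates 1 to 4. In this gene the petc samples 1 and 2 were the higher pair, and the log2 fold change was 1.18 there against 0.53 in replicates 3 and 4. AT5G10910 had 0.374, 0.400, 0.343 and 0.322 in petc replicates 1 to 4, against 0.192, 0.248, 0.147 and 0.200 in WT replicates 1 to 4. The lowest petc sample was replicate 4, which still lay above the highest WT sample, replicate 2.

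AT2G01400 had 0.189, 0.145, 0.143 and 0.135 in petc replicates 1 to 4, against 0.0962, 0.120, 0.0785 and 0.0434 in WT replicates 1 to 4. It was the member whose petc and WT values overlapped after normalisation, where its lowest petc value was 0.956 times its highest WT value. AT2G39360 had 1.60, 1.64, 1.15 and 1.18 in petc replicates 1 to 4, against 0.997, 1.03, 0.588 and 0.684 in WT replicates 1 to 4. Replicates 3 and 4 were lower than 1 and 2 in both genotypes, and petc replicate 3 was 1.12 times WT replicate 2, while the ratio of means was 1.69. AT2G37750 had 0.588, 0.493, 0.415 and 0.377 in petc replicates 1 to 4, against 0.324, 0.336, 0.241 and 0.221 in WT replicates 1 to 4. Replicates 3 and 4 were the dimmer pair in both genotypes, and the same held for AT2G04790, which averaged 1.42 ± 0.199 in petc and 0.858 ± 0.181 in WT.

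The other 7 genes of this range had smaller ratios of means than these. AT4G27510 averaged 0.644 ± 0.0341 in petc and 0.400 ± 0.0498 in WT, a log2 fold change of 0.69 ± 0.13. AT3G15140 averaged 0.928 ± 0.0864 in petc and 0.583 ± 0.0421 in WT. AT3G03890 was the member with the highest WT mean, at 1.74 ± 0.193 in petc and 1.12 ± 0.0711 in WT, and its log2 fold change was 0.55 ± 0.11. AT3G58610 averaged 0.537 ± 0.0590 in petc and 0.351 ± 0.0506 in WT. AT1G51350 averaged 1.63 ± 0.0873 in petc and 1.07 ± 0.114 in WT, with log2 fold changes of 0.65 in replicates 1 and 2 and 0.40 in replicates 3 and 4. AT1G64430 averaged 0.679 ± 0.0736 in petc and 0.450 ± 0.0150 in WT, and its WT samples were nearly equal. AT5G48130 averaged 0.215 ± 0.0139 in petc and 0.142 ± 0.0202 in WT. Of the 14 genes, AT2G01400, AT2G37750 and AT3G58610 lost the margin after normalisation, and the other 11 kept it.

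The remaining 15 genes known by locus had ratios of 1.24 to 1.47 and log2 fold changes of 0.29 to 0.55, with a median of 0.38. AT3G18870 averaged 0.360 ± 0.0396 in petc and 0.245 ± 0.0211 in WT, with a log2 fold change of 0.36 in replicates 1 and 2 and 0.62 in replicates 3 and 4. AT4G22370 averaged 0.664 ± 0.0251 in petc and 0.452 ± 0.0317 in WT, a log2 fold change of 0.55 ± 0.09. AT3G03590 averaged 0.550 ± 0.0305 in petc and 0.396 ± 0.0313 in WT. AT5G03900 had the log2 fold changes 0.55 in replicates 1 and 2 and 0.39 in replicates 3 and 4, with means of 0.772 ± 0.0363 in petc and 0.558 ± 0.0164 in WT. AT1G13990 averaged 0.757 ± 0.0476 in petc and 0.559 ± 0.0381 in WT. AT3G59980, among the brighter of the 46, averaged 1.38 ± 0.106 in petc and 1.03 ± 0.0459 in WT. AT2G31800 averaged 0.488 ± 0.0188 in petc and 0.369 ± 0.0385 in WT. AT3G08000 averaged 0.363 ± 0.0261 in petc and 0.277 ± 0.00866 in WT. These 8 genes kept the margin after normalisation.

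The margin was lost after normalisation in the other 7. AT2G35390 averaged 0.445 ± 0.0374 in petc and 0.317 ± 0.0408 in WT. AT2G48130 averaged 0.152 ± 0.0179 in petc and 0.110 ± 0.0142 in WT. AT3G02450 averaged 0.179 ± 0.00793 in petc and 0.133 ± 0.0178 in WT. AT4G24840, with the smallest gap of all 46, averaged 0.312 ± 0.0210 in petc and 0.238 ± 0.0197 in WT. AT1G33250 averaged 1.20 ± 0.0962 in petc and 0.933 ± 0.0639 in WT. AT4G27700 averaged 0.860 ± 0.0636 in petc and 0.676 ± 0.0335 in WT. AT1G24360 averaged 1.21 ± 0.0374 in petc and 0.974 ± 0.0505 in WT, the smallest ratio of the 46, and its log2 fold change was 0.38 in replicates 1 and 2 and 0.19 in replicates 3 and 4.

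The difference was present in both pairs of replicates for all 46 transcripts, which the margin rule itself requires. On the normalised scale the median log2 fold change was 0.62 in replicates 1 and 2 and 0.61 in replicates 3 and 4. As deposited, 36 of the 46 had the larger ratio in replicates 3 and 4, or 78.3%, against 67.7% of the 527 eligible probes. After normalisation it was 26 of 46, or 56.5%, against 52.9%. In the deposited values, the ratio in replicates 3 and 4 was over 1.5 times that in replicates 1 and 2 in 3 genes. They were AT3G61870 (4.40 against 2.10), AT1G62760 (3.93 against 1.76) and AT4G05070 (2.81 against 1.59). In these 3 genes the mean WT level in replicates 3 and 4 was 0.380, 0.390 and 0.506 times that in replicates 1 and 2. The reverse held for 0 genes as deposited. After normalisation AT5G19050 and FBL17 lay farthest the other way, with log2 fold changes of 1.18 and 1.03 in replicates 1 and 2. In replicates 3 and 4 they had 0.53 and 0.39.

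The level itself also moved between the pairs. After normalisation 27 of the 46 were dimmer in replicates 3 and 4 in both genotypes, 11 were brighter in both and 8 went opposite ways, while of the eligible probes 46.3% were dimmer in both and 33.6% brighter in both. The labels do not say what the pairs are.

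**Figure D4:**
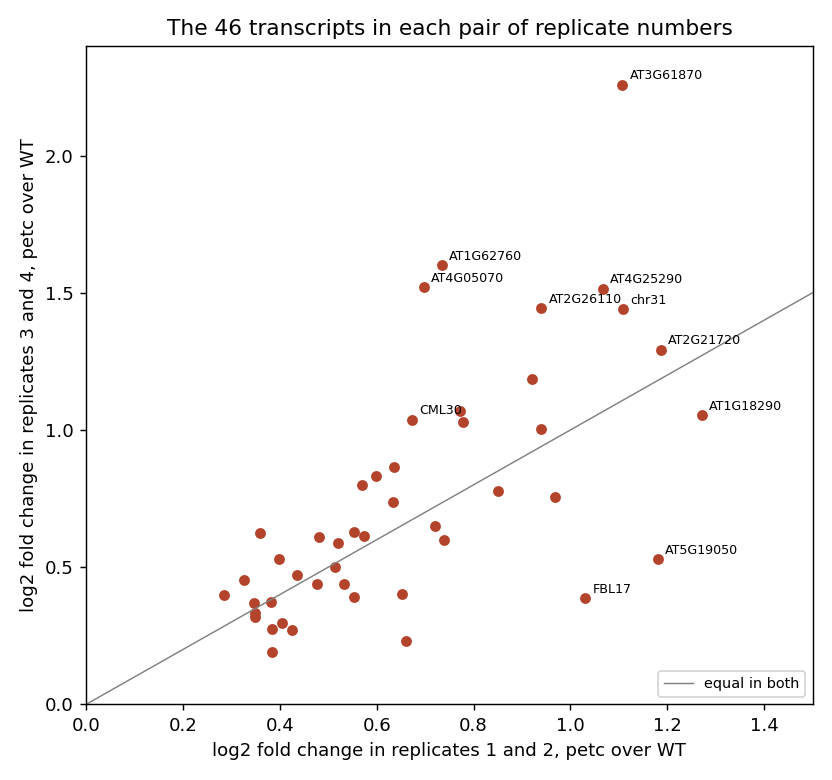
Log2 fold change of petc over WT (normalised values) in replicates 3 and 4 (y axis) against that in replicates 1 and 2 (x axis) for the 46 transcripts, 1 point per gene, with a line where both are equal. All points are above 0 on both axes; AT3G61870, AT1G62760 and AT4G05070 lie farthest above the line and AT5G19050 and FBL17 farthest below it.

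The margin depended on the scale for the closest members. Just inside it were AT4G24840 (lowest petc 0.280, highest WT 0.255), AT2G48130 (0.137 and 0.124) and AT4G27700 (0.794 and 0.714). Just outside were AT4G18180 (1.44 and 1.32), AT1G04420 (0.157 and 0.143) and TPP2 (0.380 and 0.352). The median intensity of the probes above 0 was 0.385 to 0.422 in petc and 0.388 to 0.398 in WT, and how the arrays were scaled is not stated. The highest value was 100 in all 8 samples, shared by 2 to 4 probes in each, and 0 members were at it. With quantile normalised values 33 of the 46 met the margin, and with each array centred on its median 33 did, 31 of them under both. The gap was at least 1.5 as deposited in 7 members, which are AT2G21720, chr31, AT4G25290, AT2G26110, AT4G13550, AT4G20690 and CML30.

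**Figure D5:**
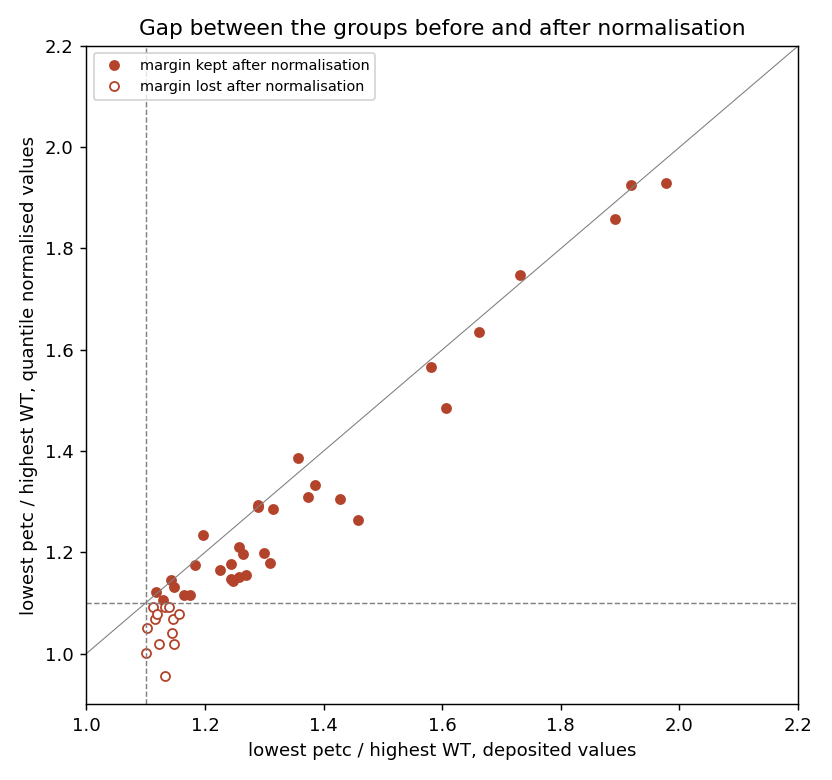
Lowest petc value over highest WT value for each of the 46 transcripts after quantile normalisation (y axis) against the same ratio as deposited (x axis), with dashed lines at the margin of 1.1 and a solid line where both are equal. Filled points are the 33 that keep the margin and open points the 13 that lose it, all of which had a deposited ratio of at most 1.16.

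No members were direct neighbours in the gene order of the reference annotation. The nearest were AT4G27510 and AT4G27700, 25 protein-coding genes apart. Words for plastid, mitochondrial, RNA, kinase, transport and other roles were looked for in the symbols and synonyms of the gene table, which holds no product text. They placed 37 of the 692 single-gene probes in a class, of which 31 were tested and 5 were called higher and 5 lower, and 2 of the 46 members, chr31 and GH9B12. The word search was therefore too sparse to describe the members by role.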

How the data were processed

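The authors deposited linear intensities in 1 column per sample. No source used here states how they scanned, background-corrected and scaled the arrays, and 0 per-sample columns were set aside. Probes were named through GEO's platform annotation (692 with 1 gene, 870 with several, 1877 with none), and all 46 members matched the RefSeq gene table (assembly TAIR10.1), used for names and gene order only. Values of 0 were taken as missing, the rest to log2 and quantile normalised, because column medians spanned 0.131 in log2 units. Probes with at least 3 values per group were compared with limma 3.58.1 in R 4.3.3, with Benjamini-Hochberg adjustment over 2947 probes. The fit was also run on simulated data with independent samples. Those data lack the pairs seen here, so that run does not show how the fit behaves with them. Members and alternatives were chosen with earlier results of these data known, and p-values reflect only how far these samples spread, possibly for technical reasons. Every member is named, and the 20 with the largest ratio are given in every sample. Role classes were planned on product text and were run on symbols and synonyms. Same-numbered samples of petc and WT deviated together from their group means (Pearson r of 0.586 to 0.649 in 4 pairs), a pairing that comes from the data and from no label, and the fit without the replicate block is the main one. No probe, promoter or protein sequence was used here. The number of arrays limits the precision. Figures were drawn with Matplotlib 3.10.9.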

Additional observations from a re-analysis of the deposited data

Results flagged for a closer look

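Of 92 groups of 4 values, the deposited intensities of the 46 transcripts in petc and in WT, 3 held a sample that stood apart from the rest of its group by Dixon's test at the 95% level. Chance gives about 1 in 20, or 4.6 of 92, for independent samples. AT1G62760 in petc replicate 1 was 0.138, above the 0.102 to 0.106 of the other petc samples. AT4G24840 in petc replicate 4 was 0.280, below 0.318 to 0.325 in the other petc samples, and this value sets its place just inside the margin. AT1G33250 in WT replicate 4 was 0.838, below 0.956 to 0.975 in the other WT samples.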

How the results depend on the processing

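All 46 members were higher in petc under every alternative fit, a direction that the choice of members sets and that is no sign of stability. Of 828 recomputed log2 fold changes, 808 moved by no more than the spread within groups, which is no sign of stability either. The fits that change only the error model or the set of tested probes repeat the main log2 fold change of a member. Leaving out 1 of 4 samples cannot move it past that spread. The other 20 values were 7 with replicates 1 and 2 alone, 7 with replicates 3 and 4 alone and 6 with an offset of 0.1 before log2. The number of members was 7 with a margin of 1.5, 66 with a margin of 1.0, and 49 to 57 without each sample in turn. Leaving out a sample can only keep or widen the gap of a probe. All 46 stayed members each time, so that range is no sign of stability. Over all probes, 823 passed the threshold (373 higher, 450 lower), while without any scaling 448 rose and 385 fell. The replicate block gave 1374 (654 higher, 720 lower, of 2947 tested) and added the calls of 6 members. It changed no call of the several-gene probe that lists GH9B12, whose alternatives were chosen after seeing the data and kept its direction and its call. With duplicates as correlated readings 345 probes (163 higher, 182 lower, of 2947 tested) and 12 members passed. Without each sample in turn it was 626 to 725 probes and 27 to 37 members, with a median log2 fold change of 0.58 to 0.69. These probe totals hold both directions, whereas all called members were higher. Without WT replicate 1, for example, 340 of 2929 probes were called higher and 384 lower, beside 35 of the 46 members. Nothing is read from the member counts, since the same contrast chose the members. The cause was not tested. A fit of 1 pair of replicate numbers alone measures only the spread within that pair.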
